A study of Gallus gallus with 71 samples.

Results

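The libraries described here followed the paraventricular nucleus (PVN) of control broiler chicks through a heat challenge. They were chosen by their sample labels, tissue PVN and treatment C, and they were 12 of the 71 libraries in the count table. There were 4 libraries at hour 0, 4 at hour 2 and 4 at hour 12, and in each group 2 were labelled male and 2 female. The comparison asked which transcripts of the PVN differed in abundance between times in the heat when no embryonic conditioning had been given.

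The chicks were Hubbard x Cobb-500 broilers, a fast-growing meat chicken. Control eggs were incubated at 37.5 °C. After hatch the chicks were held at 30 °C under continuous light, and on day 4 they were moved to 36 °C. Hour 0 was sampled before the heat, and hours 2 and 12 were counted from its start. Each time point was a different set of chicks, and no chick was left unheated at hour 2 or hour 12. Hours of heat and anything else that passes with the hours, such as age, therefore cannot be told apart. The 11 PVN libraries of chicks given embryonic heat conditioning (EHC), whose eggs were warmed to 39.5 °C for part of each day in mid-incubation, are used below only where the control time course is set beside theirs.

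The PVN is a nucleus of the hypothalamus. Its neurosecretory neurons release corticotropin-releasing hormone, which starts the endocrine stress response, and vasotocin and mesotocin, the avian counterparts of vasopressin and oxytocin. It receives input from preoptic neurons that sense temperature, and it takes part in the control of feeding and water balance. In these data each PVN is a punch of frozen brain, so the RNA comes from all cell types of the nucleus, and fewer cells of a type and less RNA per cell cannot be told apart.

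Library totals ran from 3059641 to 5307243 at hour 0, from 1386051 to 2764458 at hour 2 and from 1739986 to 7219945 at hour 12. All 4 hour 2 libraries were thus shallower than every hour 0 library, and a gene with few reads was measured least precisely at hour 2. Within groups, log2 CPM (counts scaled to library size) correlated between 0.939 and 0.967. The CPM values of single genes given below are also scaled by TMM factors, which adjust library totals. These factors were 1 to 1.08 at hour 0, 0.838 to 1.01 at hour 2 and 0.994 to 1.04 at hour 12. Sample_72, labelled female at hour 2, had 7.99 CPM over 59 female-limited genes, while the other libraries labelled female had 1130 to 1500 CPM, so 1 of the 12 libraries went against its sex label. Over the series 5 libraries did, all of hour 2, and Sample_69, an EHC PVN library labelled male with 1260 CPM, was another. The female-limited genes were themselves chosen by the sex labels of the hour 0 and hour 12 libraries. Only hour 2 libraries could therefore go against their label, and the labels of hours 0 and 12 were not checked. Sample_72 was kept in the control group by its label, and whether labels other than sex were affected was not tested. Sex was a covariate of each fit unless said otherwise, and values without this library are given beside the leading results. The table names genes by Ensembl ID, and symbols were used for 91 genes that the study's tables pair with an ID. All 91 passed the filter on low counts. The defining neuropeptides and cell type markers of the PVN are not among them, so the tissue label was not checked against markers. The connective tissue genes among them (MGP, MFAP5, SERPINF1, CHAD and OC3, 5 genes) summed to 30 to 55.8 CPM at hour 0, 42.1 to 67.9 CPM at hour 2 and 34.2 to 53.7 CPM at hour 12, ranges that overlap. MFAP5 had the highest mean of the 5 at each hour, with 26.3, 35.4 and 26.2 CPM, and weighs most in the sum. CHAD on its own was higher at hour 12 than at hour 0 without overlap.

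Among the genes with a symbol, the mitochondrially encoded mRNAs averaged higher at hours 2 and 12 than at hour 0, with median log2 fold changes of 0.33 and 0.52 over 11 mRNAs. KPTN had its lowest values at hour 2 and CAPZB, of the actin-capping protein, its highest. None of these differences passed the test across all genes.

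No gene passed an adjusted p of 0.1 in any of the 3 comparisons by edgeR's quasi-likelihood test, with 20363 genes tested and Benjamini-Hochberg adjustment. The share called was 0% for hour 2 against hour 0, 0% for hour 12 against hour 0 and 0% for hour 12 against hour 2. The smallest adjusted p was 0.53, 0.999 and 0.527 for the same comparisons. With no filter on low counts, 26581 genes were tested and the same test gave another count. It called 151 genes for hour 2 against hour 0, 29 for hour 12 against hour 0 and 56 for hour 12 against hour 2. Values below are with the filter unless said otherwise. Before adjustment, 1462 genes (7.18%) had a p under 0.05 for hour 2 against hour 0, of which 623 (3.06%) were higher and 839 (4.12%) lower at hour 2. The same count was 726 (3.57%) for hour 12 against hour 0, with 441 (2.17%) higher and 285 (1.4%) lower at hour 12. It was 1857 (9.12%) for hour 12 against hour 2, with 1106 (5.43%) higher and 751 (3.69%) lower at hour 12. The hour accounted for 18.8% of the variance of log2 CPM, which was not past what regrouping the 12 libraries gives (one-sided exact permutation test over 34650 arrangements, p = 0.369).

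DESeq2's Wald test on the same libraries gave another count. It called 72 genes (0.354%) for hour 2 against hour 0, 55 higher (0.27%) and 17 lower (0.0835%) at hour 2. It called 0 for hour 12 against hour 0, and 163 (0.8%) for hour 12 against hour 2, 7 higher (0.0344%) and 156 lower (0.766%) at hour 12. DESeq2 gave an adjusted p to 13255 genes in the first of these comparisons and to 2992 in the last. Percentages of DESeq2 calls, here and below, are of all 20363 genes, including those it gave none. They are thus lower than shares of the genes it could call, most of all for hour 12 against hour 2. By edgeR's fold changes, the 72 calls had a median absolute log2 value of 1.03, with 37 over 1. The 163 calls had a median of 0.436, with 6 over 1. Median abundance was 56.5 CPM for the 72 and 199 CPM for the 163. None of DESeq2's calls has a symbol. With 1 library left out at a time, its calls for hour 2 against hour 0 numbered between 14 (without Sample_66) and 241 (without Sample_15). Calls for hour 12 against hour 2 numbered between 0 (without Sample_126) and 289 (without Sample_147). Their direction also depended on single libraries, with 71 of 169 higher at hour 12 without Sample_75 and 16 of 26 without Sample_174. With any other library left out, most calls, where there were any, were lower at hour 12. Without Sample_72 there were 19 calls for hour 2 against hour 0 and 10 for hour 12 against hour 2. With 1 library left out at a time, calls for hour 12 against hour 0 were between 0 and 20.

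The 2 higher and 2 lower IDs without a symbol that had the smallest p in edgeR at hour 2 against hour 0 were all called by DESeq2, and the files do not pair them with names. ENSGALG00010024173 had 105, 106, 34.1 and 52.2 CPM at hour 0, 235, 354, 211 and 113 CPM at hour 2, and 270, 139, 89.5 and 50.6 CPM at hour 12. Hours 2 and 0 did not overlap, and hour 12 spread across both. At hour 2 against hour 0 its log2 fold change was 1.71 ± 0.286 (SE, with 0.53 in edgeR and 9.95e-05 in DESeq2 as adjusted p). ENSGALG00010004722 averaged 17.2 ± 2.33 CPM at hour 2 and 3.35 ± 1.77 CPM at hour 0 (SD, n = 4 each), again without overlap, a log2 difference of 2.50 ± 0.426 (SE, with 0.53 in edgeR and 0.000108 in DESeq2 as adjusted p). On the lower side, ENSGALG00010006608 averaged 7.43 ± 2.9 CPM at hour 2 and 16.1 ± 4.64 CPM at hour 0 (SD, n = 4 each), with overlap. ENSGALG00010027833 averaged 4.74 ± 2.2 CPM at hour 2 and 13.3 ± 5.34 CPM at hour 0 (SD, n = 4 each), without overlap. Adjusted p was 0.546 by edgeR for both, and 0.0489 and 0.045 by DESeq2.

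No gene with a symbol was called by edgeR, and none by DESeq2 among those it gave an adjusted p, which were 83 of 91 for hour 2 against hour 0, 91 for hour 12 against hour 0 and 33 for hour 12 against hour 2. For hour 2 against hour 0, 6 of the 91 were higher and 6 lower at an unadjusted p under 0.05, against 3.06% and 4.12% of all genes tested. At hour 12 against hour 0, 10 were higher and 0 lower, against 2.17% and 1.4%. Of the genes higher than at hour 0, 4 at hour 2 and 7 at hour 12 were mitochondrially encoded mRNAs, which are not independent measurements. Between hours 12 and 2, 8 were higher at hour 12 and 5 lower, against 5.43% and 3.69%. These genes entered the study's tables through differences in the same series, partly in these PVN libraries, so their counts are a description. Their median log2 fold change was 0.0222, 0.0837 and 0.0741 in the same order of comparisons, beside -0.0559, 0.00619 and 0.0723 over all genes tested. The plot of log2 fold changes by gene list shows that most lists straddled 0.

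**Figure D1:**
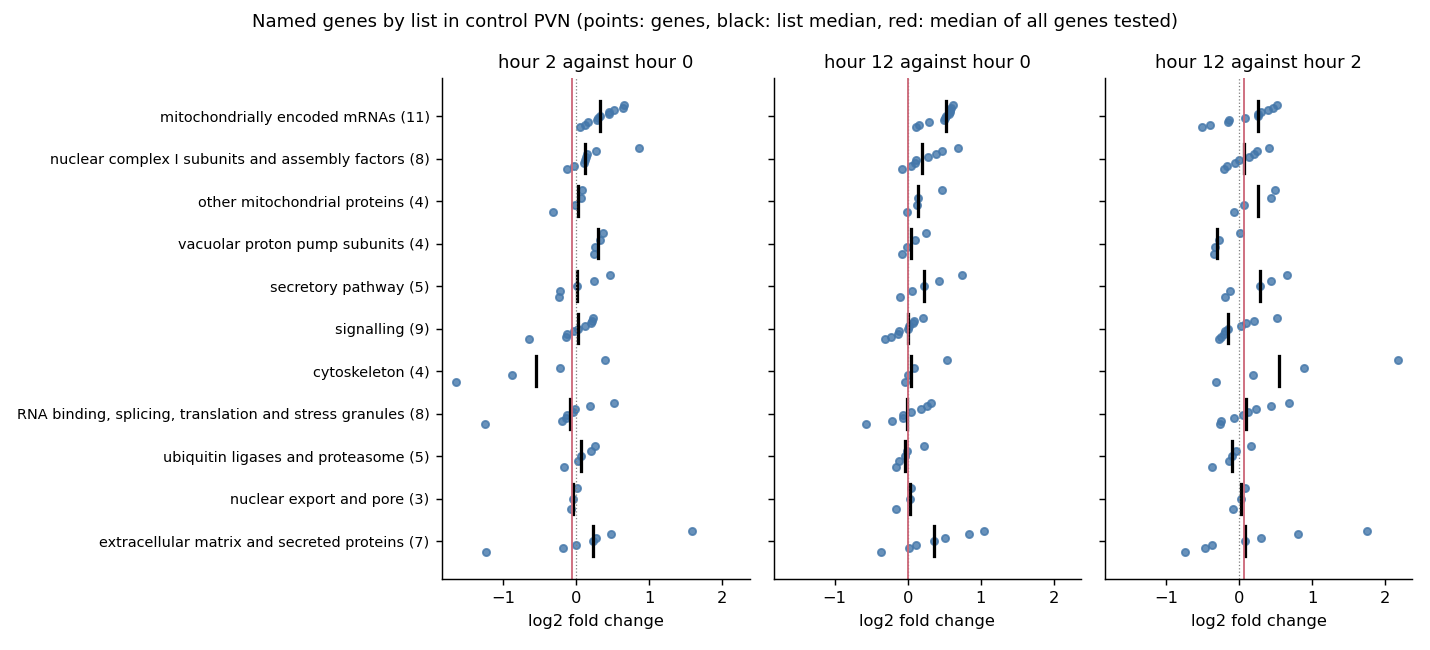
Log2 fold change of each named gene (points) by gene list, with the number of genes in parentheses, for hour 2 against hour 0, hour 12 against hour 0 and hour 12 against hour 2. Black bars are list medians and the red line is the median of all genes tested. The mitochondrially encoded mRNAs had medians of 0.33, 0.52 and 0.25 in these panels, and no point passed the test.

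The mitochondrially encoded mRNAs lay on 1 side of 0 in both comparisons with hour 0. COX3 and ND4L, also mitochondrially encoded, are not in the study's tables, so the 11 described here are not the full set. They encode subunits of the respiratory chain (ND1 to ND6 and CYTB, and the oxidases COX1 and COX2) and of ATP synthase (ATP6 and ATP8). Apart from ND6, they are read from long shared transcripts of the mitochondrial genome, so they are not 11 independent measurements. For hour 2 against hour 0, 11 of 11 had a log2 fold change above 0, where 43.7% of all genes did, with a median of 0.33 and a range of 0.05 to 0.66, though ND4 and ND6 fell below 0 when certain single libraries were left out. At hour 12 against hour 0, 11 of 11 were again above 0, where 50.8% of all genes were, with a median of 0.52 and a range of 0.11 to 0.62. None was called, and 4 and 7 of the 11 had an unadjusted p under 0.05. Both comparisons use the same hour 0 libraries. Between hours 12 and 2, 7 were above 0 and 4 below, where 56.7% of all genes were above.

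In each library, the median log2 ratio of the 11 mRNAs to their mean at hour 0 was -0.04, -0.28, 0.21 and 0.04 at hour 0, then 0.63, 0.50, 0.36 and -0.02 at hour 2, and 0.51, 0.36, 0.01 and 0.92 at hour 12. The plot of these ratios by library shows 3 high libraries and 1 at the hour 0 level at hour 2, and the same at hour 12. The libraries at the hour 0 level were Sample_120 at hour 2, with 5 of 11 mRNAs above their hour 0 mean, and Sample_147 at hour 12, with 6 of 11. For none of the 11 mRNAs were hour 2 and hour 0, or hour 12 and hour 0, without overlap. Without Sample_120 the median for hour 2 against hour 0 was 0.53, and that for hour 12 against hour 2 was 0.06 in place of 0.25. Without Sample_144 the median for hour 12 against hour 0 was 0.31 in place of 0.52, and that for hour 12 against hour 2 was 0.04. Without Sample_147 the median for hour 12 against hour 2 was 0.40. Without Sample_72 the median for hour 2 against hour 0 was 0.34. The 11 mRNAs took 0.78% to 1.06% of counts at hour 0, 0.899% to 1.52% at hour 2 and 0.96% to 1.37% at hour 12. At hour 2 that share fell as library totals rose, from 1.52% in Sample_66 (1386051) to 0.899% in Sample_120 (2764458), the deepest. Between them were Sample_72 (1.42%, 1751166) and Sample_75 (1.14%, 1844437). At hour 12 the deepest library, Sample_144 (7219945), had 1.37%, and the shallowest, Sample_147 (1739986), had 0.96%. Whether depth bears on these values was not tested.

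**Figure D2:**
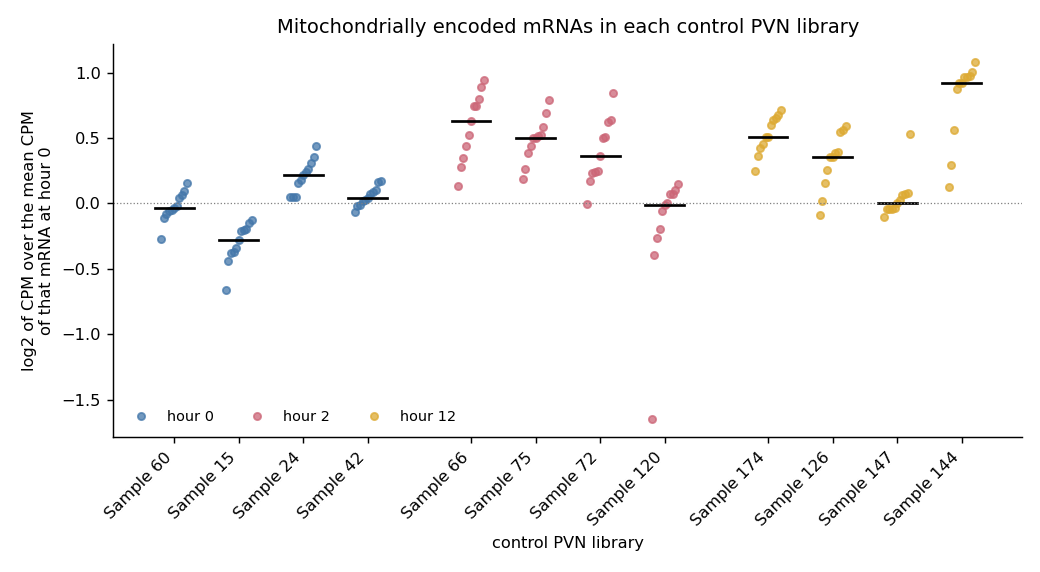
Log2 ratio of CPM to the mean CPM at hour 0, for 11 mitochondrially encoded mRNAs (points) in each control PVN library, with black bars as medians over the 11. Medians lay between -0.28 and 0.21 at hour 0, and Sample_120 (-0.02) and Sample_147 (0.01) fell within that range while the other hour 2 and hour 12 libraries lay above it.

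The order of the hours differed between members. COX2, a subunit of cytochrome c oxidase (MT:7108-7791 in RefSeq on GRCg7b), had 2060, 1480, 1990 and 2170 CPM at hour 0, 3700, 3110, 3460 and 1930 CPM at hour 2, and 2480, 1950, 2020 and 2100 CPM at hour 12. Its 3 highest libraries were all of hour 2, and the fourth hour 2 library lay within the hour 0 range. On the log2 scale it stood at 0.66 ± 0.204 (SE, with 0.685 in edgeR and 0.159 in DESeq2 as adjusted p) for hour 2 against hour 0, and -0.51 ± 0.204 (SE, edgeR adjusted p = 0.527) for hour 12 against hour 2. COX1, the catalytic subunit of the same oxidase, was alike, with 5100 ± 1140 CPM at hour 2 and 3570 ± 326 CPM at hour 0 (SD, n = 4 each) and 0.51 ± 0.188 (SE) for that comparison. ND2, a subunit of respiratory complex I (MT:4015-5053), had 170, 169, 221 and 176 CPM at hour 0, 202, 221, 207 and 193 CPM at hour 2, and 302, 277, 179 and 369 CPM at hour 12. Here the 3 highest libraries were of hour 12, and the log2 difference was 0.62 ± 0.185 (SE, edgeR adjusted p = 0.999) for hour 12 against hour 0. ATP6 and ATP8 had 0.59 ± 0.204 and 0.56 ± 0.203 (SE) for hour 12 against hour 0, and ND3 had 0.63 ± 0.207 (SE) for hour 2 against hour 0, each with overlap.

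Nuclear genes of mitochondria were not called either. Of 8 subunits and assembly factors of complex I, 6 were above 0 for hour 2 against hour 0 and 7 for hour 12 against hour 0, with medians of 0.12 and 0.20, and 0 of 8 had an unadjusted p under 0.05. For hour 2 against hour 0 the median was 0.24 without Sample_120 and 0.0757 without Sample_24. At hour 12 against hour 0 it was 0.00236 without Sample_144 and 0.32 without Sample_126. NDUFB5, an accessory subunit of complex I, averaged 15.3 CPM at hour 2 and 8.43 CPM at hour 0 with overlap, and the log2 difference was 0.85 ± 0.491 (SE, edgeR adjusted p = 0.725). NDUFS7, a core subunit, averaged 23.3 CPM at hour 12 and 17.7 CPM at hour 2, also with overlap. HSPA9, the mitochondrial chaperone of the Hsp70 family, was picked for that role after its values were seen, and averaged 103 CPM at hour 0, 107 CPM at hour 2 and 102 CPM at hour 12. On the log2 scale it stood at 0.06 ± 0.133 for hour 2 against hour 0 and -0.01 ± 0.132 for hour 12 against hour 0 (SE, edgeR adjusted p = 0.937 and 1).

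The vacuolar proton pump acidifies lysosomes and synaptic vesicles, and 4 subunits of its cytosolic part were measured. All 4 were above 0 for hour 2 against hour 0, with log2 fold changes of 0.24 to 0.37 and a median of 0.29, and none was called or had an unadjusted p under 0.05. The group ranges of each overlapped between hours 2 and 0, and at hour 0 the libraries were spread. Sample_15 was high, with a median log2 ratio of 0.37 to the hour 0 mean, while Sample_24 and Sample_42 were at -0.25 and -0.25. ATP6V1H had 91.8, 123, 64.2 and 69.2 CPM at hour 0, 97.3, 116, 118 and 109 CPM at hour 2, and 83.8, 104, 92.3 and 87.3 CPM at hour 12. At hour 0 the libraries labelled male were above those labelled female, and at hour 2 all 4 libraries lay close together. At hour 12 against hour 2, 3 of the 4 subunits were below 0, and the fourth, ATP6V1D, changed sign between alternatives. ATP6V1C1 averaged 105 ± 9.15 CPM at hour 12 and 132 ± 18.0 CPM at hour 2 (SD, n = 4 each) without overlap, a log2 difference of -0.34 ± 0.161 (SE, edgeR adjusted p = 0.554). ATP6V1D averaged 85.4 ± 1.95 CPM at hour 12 and 71.7 ± 7.69 CPM at hour 0 (SD, n = 4 each), also without overlap, with 0.25 ± 0.125 (SE, edgeR adjusted p = 0.999). Scaled by library totals alone, without TMM factors, ATP6V1C1 overlapped between hours 12 and 2, and ATP6V1D between hours 12 and 0.

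**Figure D3:**
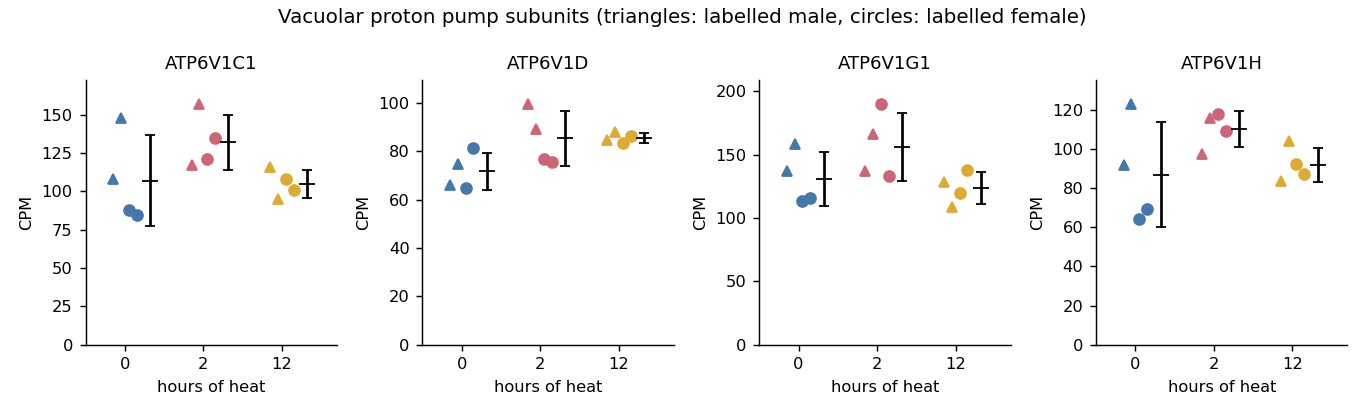
CPM of 4 vacuolar proton pump subunits in each control PVN library at hours 0, 2 and 12. Triangles are libraries labelled male, circles those labelled female, and black marks group means with SD (n = 4). In the ATP6V1C1 panel the hour 2 libraries all lie above the hour 12 libraries, while hours 2 and 0 overlap in all panels.

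KPTN, of the cytoskeleton list, had the smallest p of the genes with a symbol. It encodes kaptin, an actin-associated protein that is also part of a complex restraining the growth kinase mTORC1. It lies at 38:182692-189904 on GRCg7b. It had 2.63, 4.77, 5.21 and 5.76 CPM at hour 0, 0.754, 1.29, 2.83 and 1.09 CPM at hour 2, and 5.57, 4.77, 7.83 and 8.57 CPM at hour 12. All 4 hour 2 libraries lay below every hour 12 library, and 3 of them below every hour 0 library. On the log2 scale it stood at 2.18 ± 0.392 (SE, edgeR adjusted p = 0.527, with none given by DESeq2) for hour 12 against hour 2 and -1.64 ± 0.40 (SE, with 0.546 in edgeR and 0.241 in DESeq2 as adjusted p) for hour 2 against hour 0. Without Sample_72 they were 2.57 and -2.03. Behind these CPM values stand 12, 19, 28 and 19 read pairs for hour 0. The hour 2 libraries had 1, 2, 5 and 3 read pairs, and those of hour 12 had 23, 24, 14 and 63. With no filter on low counts, the adjusted p for hour 12 against hour 2 was 0.0486 by edgeR, which is past the threshold.

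KPTN, VIPR1 and CAPRIN2 are among the genes that the study lists for the PVN at hour 2, from a comparison that used these hour 2 control libraries. All 3 were below 0 for hour 2 against hour 0 and above 0 for hour 12 against hour 2, and their low hour 2 values are not independent of that choice. VIPR1, a receptor for vasoactive intestinal peptide, had 14.3, 13.6, 14.7 and 9.44 CPM at hour 2, against 11.2, 31.4, 19.5 and 18.5 CPM at hour 0. Of the hour 0 libraries 3 lay above every hour 2 library and the other lay within the hour 2 range, and the log2 difference was -0.65 ± 0.367 (SE, edgeR adjusted p = 0.72). CAPRIN2, an RNA-binding protein known in rat magnocellular neurons for a role in vasopressin mRNA, had -0.13 ± 0.282 (SE, edgeR adjusted p = 0.938), and this turned to 0.07 without Sample_15.

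CAPZB, the beta subunit of the actin-capping protein, took the opposite course. It had 84.5, 75.6, 75.5 and 71.6 CPM at hour 0, 91.3, 104, 112 and 95.8 CPM at hour 2, and 90.8, 82.5, 82.2 and 70.8 CPM at hour 12. All 4 hour 2 libraries lay above every library of the other hours, the nearest being 91.3 CPM at hour 2 and 90.8 CPM at hour 12. This separation depended on TMM scaling, with factors of 0.957 in Sample_66 and 0.838 in Sample_75. Scaled by library totals alone, these hour 2 libraries lay below Sample_60 of hour 0 and Sample_174 of hour 12. On the log2 scale it stood at 0.39 ± 0.122 (SE, with 0.685 in edgeR and 0.189 in DESeq2 as adjusted p) for hour 2 against hour 0, and 0.32 without Sample_72. Its value for hour 12 against hour 2 was -0.31 ± 0.122 (SE, with 0.527 in edgeR and 0.119 in DESeq2 as adjusted p). SNTB2, a syntrophin of the dystrophin complex, averaged 5.01 ± 0.661 CPM at hour 12 and 2.82 ± 0.992 CPM at hour 2 (SD, n = 4 each) without overlap, from 4 or 5 read pairs in each hour 2 library.

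Groups did not overlap for hour 2 against hour 0 in 705 of all genes (3.46%, with 1.13% higher and 2.33% lower at hour 2). This held for 4 of the 91 with a symbol, 2 higher (CAPZB and LSM12) and 2 lower (KLHDC8A and C6H10orf76). Scaled by library totals alone, CAPZB and LSM12 overlapped between hours 2 and 0, while KLHDC8A and C6H10orf76 did not. KLHDC8A, a kelch-repeat protein, had 39.9, 42.9, 45.8 and 40.4 CPM at hour 0, 30.9, 37.5, 26 and 29.8 CPM at hour 2, and 39.7, 44.1, 43.1 and 54.2 CPM at hour 12. Hour 2 lay below both other hours without overlap, with -0.45 ± 0.158 for hour 2 against hour 0 and 0.55 ± 0.159 for hour 12 against hour 2 (SE, edgeR adjusted p = 0.685 and 0.527). C6H10orf76 had 31.3, 29.9, 36.5 and 32.2 CPM at hour 0, 21.9, 27.2, 24.3 and 24.7 CPM at hour 2, and 27.4, 24.4, 28.5 and 26.4 CPM at hour 12. Both later hours lay below hour 0 without overlap, with -0.40 ± 0.145 at hour 2 and -0.29 ± 0.139 at hour 12 (SE, edgeR adjusted p = 0.685 and 0.999). LSM12, an RNA-binding Sm-like protein, had 18.1, 17.5, 18.7 and 14.5 CPM at hour 2, against 9.20, 12.8, 14.3 and 11.5 CPM at hour 0, a log2 difference of 0.51 ± 0.213 (SE, edgeR adjusted p = 0.685). INTS11, the endonuclease subunit of the Integrator complex, had the largest difference of the RNA-binding list at -1.25 ± 0.471 (SE, edgeR adjusted p = 0.685), from 1 to 4 read pairs per hour 2 library.

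**Figure D4:**
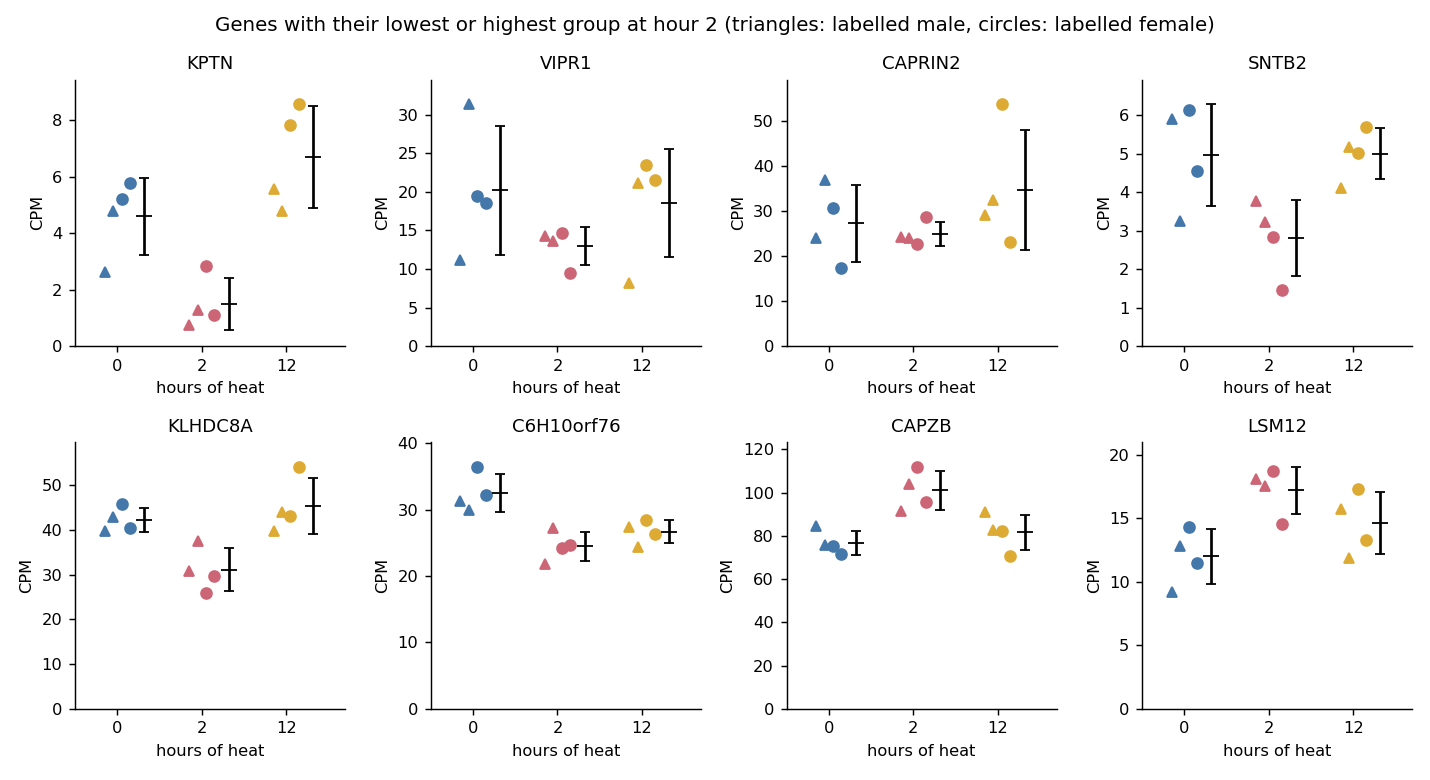
CPM of 8 genes in each control PVN library at hours 0, 2 and 12. Triangles are libraries labelled male, circles those labelled female, and black marks group means with SD (n = 4). Hour 2 is the lowest group mean for KPTN (1.49 CPM), VIPR1, CAPRIN2, SNTB2, KLHDC8A and C6H10orf76, and the highest for CAPZB (101 CPM) and LSM12 (17.2 CPM).

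Between hours 12 and 0, the groups did not overlap in 570 of all genes (2.8%, with 1.37% higher and 1.43% lower at hour 12) and in 4 of the 91 with a symbol. These were C6H10orf76 and ATP6V1D, given above, and the extracellular proteins TIMP2 and CHAD. TIMP2, an inhibitor of matrix metalloproteinases, had 183, 202, 188 and 168 CPM at hour 12, against 143, 153, 137 and 141 CPM at hour 0, a log2 difference of 0.36 ± 0.164 (SE, edgeR adjusted p = 0.999). Its hour 2 libraries spread across both, with 230 and 234 CPM in those labelled male and 144 (Sample_72) and 111 CPM in those labelled female. CHAD, the matrix protein chondroadherin, had 2.91, 3.18, 4.47 and 5.17 CPM at hour 12, against 2.63, 1.51, 2.6 and 0.607 CPM at hour 0, which rest on 2 to 14 read pairs per hour 0 library. BLOC1S1, a subunit of a complex that forms lysosome-related organelles, averaged 4.14 ± 1.05 CPM at hour 12 and 2.48 ± 0.745 CPM at hour 0 (SD, n = 4 each), with overlap.

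Between hours 12 and 2, the groups did not overlap in 1150 of all genes (5.65%, with 3.22% higher and 2.43% lower at hour 12) and in 8 of the 91, 5 higher and 3 lower at hour 12. The higher ones were KPTN, SNTB2, KLHDC8A, ADCY9 and TBC1D20, and the lower ones CAPZB, ATP6V1C1 and CSNK1A1. Scaled by library totals alone, the lower ones all overlapped between these hours, while the higher ones did not. CSNK1A1, casein kinase 1 alpha, had 247, 236, 252 and 281 CPM at hour 12, against 303, 292, 302 and 313 CPM at hour 2, a log2 difference of -0.25 ± 0.111 (SE, with 0.53 in edgeR and 0.109 in DESeq2 as adjusted p). ADCY9, an adenylate cyclase, averaged 149 ± 10.1 CPM at hour 12 and 129 ± 3.91 CPM at hour 2 (SD, n = 4 each). TBC1D20, a GTPase-activating protein that switches Rab GTPases off, averaged 41.2 ± 4.36 CPM at hour 12 and 32.7 ± 2.23 CPM at hour 2 (SD, n = 4 each), with 0.33 ± 0.139 (SE, edgeR adjusted p = 0.53). MOGS, a glucosidase that trims N-glycans, WDR18 and TMEM132A had 0.66, 0.71 and 0.57 on the log2 scale with overlap, and AREL1, a ubiquitin ligase, had -0.36. The 3 genes of nuclear export and the nuclear pore had no unadjusted p under 0.05 in any comparison, with medians of -0.0524 for hour 2 against hour 0, 0.025 for hour 12 against hour 0 and 0.0286 for hour 12 against hour 2.

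The change from hour 0 in control chicks was set against that in EHC chicks by an interaction test on the 23 PVN libraries (4 per group, and 3 for EHC at hour 12), as control minus EHC on the log2 scale. Control values are from the 12 libraries and EHC values from the model of 23. No gene passed an adjusted p of 0.1 by edgeR at hour 2 (0%) or at hour 12 (0%), with 1316 (6.46%) and 1681 (8.26%) at an unadjusted p under 0.05, and DESeq2 called 2 (0.00982%) and 54 (0.265%). At hour 2, KPTN was at -1.64 in control chicks and 0.65 in EHC chicks, an interaction of -2.26 ± 0.592 (SE, edgeR adjusted p = 0.761). VIPR1 was at -0.65 in control and 0.76 in EHC chicks, and CAPRIN2 at -0.13 and 1.12, and the study chose these 3 genes for the difference between treatments at that hour. Without Sample_69 and Sample_72 the KPTN interaction was -2.84 ± 0.662 (SE, edgeR adjusted p = 0.649), and no gene was called at either hour. Without Sample_93, an EHC library of hour 2, KPTN was at 0.05 in EHC chicks, and its interaction was -1.65 ± 0.491 (SE, edgeR adjusted p = 0.716). CAPZB was at 0.39 in control and -0.10 in EHC chicks, with an interaction of 0.48 ± 0.165 (SE, edgeR adjusted p = 0.761). At hour 12, MOGS was at 0.43 in control and -1.08 in EHC chicks, and TIMP2 at 0.36 and -0.42, with interactions of 1.51 ± 0.451 and 0.78 ± 0.266 (SE, edgeR adjusted p = 0.489 and 0.515). CERK and SERPINF1 went the other way, at -0.31 and -0.36 in control and 0.57 and 1.49 in EHC chicks. Their interactions were -0.88 ± 0.226 and -1.865 ± 0.497 (SE, edgeR adjusted p = 0.438 for both). Both are named because they had the smallest unadjusted interaction p at hour 12 of the genes with a symbol (edgeR, 0.000797 and 0.00119). In control chicks alone, their unadjusted p for hour 12 against hour 0 was 0.101 and 0.381 (edgeR).

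At hour 2, 11 of 11 mitochondrially encoded mRNAs were above 0 in control chicks with a median of 0.33, and 11 of 11 in EHC chicks with a median of 0.58. The EHC value rested on Sample_93, where these mRNAs took 2.46% of counts, against 0.872% to 1.08% in the other EHC libraries of hour 2. Without it 2 of 11 were above 0 in EHC chicks, with a median of -0.18. At hour 12 the signs differed, with 11 of 11 above 0 and a median of 0.52 in control chicks, and 11 of 11 below 0 and a median of -0.51 in EHC chicks. The EHC median was -0.31 without Sample_12 and -0.77 without Sample_27, with 0 of 11 above 0 in each case. The interaction was called for none of them, with adjusted p between 0.614 and 0.844 by edgeR at hour 12. ND2 had 0.62 in control and -0.55 in EHC chicks, an interaction of 1.15 ± 0.707 (SE, edgeR adjusted p = 0.682).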

How the data were processed

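The authors sequenced total RNA of PVN punches, depleted of ribosomal RNA, as stranded read pairs. Trimming used Trimmomatic 0.39, alignment HISAT2, selection of pairs with a single match SAMtools 1.10, removal of duplicates biobambam2, and counting featureCounts with the Ensembl annotation of GRCg7b. The counts per gene deposited by the authors are whole numbers, with no scaling, for 30108 genes. Of the columns in the table, 48 were used only in the filter on low counts and in the check of sex labels. That filter asked for over 1 CPM in 4 or more of the 71 libraries and left 20363 genes. TMM factors then scaled the libraries.

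The 12 libraries were grouped by the labels and fitted in 1 model of hour and sex with edgeR 4.0.16 (R 4.3.3, glmQLFit and glmQLFTest). Genes were called where the Benjamini-Hochberg adjusted value was 0.1 or less. Chicks are not named in the labels. Per the study, each PVN came from a different chick. DESeq2 1.42.0 was the main alternative, and both tools were tested on simulated data. Each SE is the absolute log2 fold change divided by the root of the F statistic. CPM values are TMM-scaled, and no test was run on lists. Symbols and gene lists came from the paper's tables, and positions from RefSeq by symbol on GRCg7b (90 of 91 found). Heat shock, immediate early, neuropeptide and cell type marker lists could not be matched to IDs and are not analysed here. The genes named were taken from those with an unadjusted p under 0.05 or groups without overlap, not all of which are named. Added to them were 3 that the study lists for the PVN, 2 to 4 members of lists and, of IDs without a symbol, 2 higher and 2 lower. CERK and SERPINF1 were named for their interactions with treatment. The members and lists were chosen with earlier results of these data known. Some genes are not reported here. Plots were drawn with matplotlib 3.10.9.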

Additional observations from a re-analysis of the deposited data

Results flagged for a closer look

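In 3 of 105 groups of 4 libraries (35 named genes at 3 hours), 1 library stood apart from the other 3, its gap to the nearest taking more of the range than Dixon's critical value allows. Chance gives about 1 in 20 such groups. VIPR1 at hour 12 was at 8.24 CPM in Sample_174, where the others had 21.1 to 23.5 CPM. COX1 at hour 0 was at 3080 CPM in Sample_15, where the others had 3690 to 3760 CPM. ND2 at hour 0 was at 221 CPM in Sample_24, where the others had 169 to 176 CPM.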

How the results depend on the processing

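The count of 0 genes by edgeR held in all 3 comparisons with DESeq2's size factors and with the filter set within the 12 libraries. It also held without a sex term, with all 23 PVN libraries, without mitochondrially encoded mRNAs and without Sample_72. An adjusted p of 0.05, and calls shared with DESeq2 over a log2 fold change of 1, also gave 0. Both select among the calls of the main fit, which were 0, so they could give no other count. Without a filter on low counts, edgeR called 151 genes at hour 2 against hour 0, 29 at hour 12 against hour 0 and 56 at hour 12 against hour 2. All of these genes pass the filter, and the cause was not tested. DESeq2 on 12 libraries with the filter called 48 of the 151, 0 of the 29 and 10 of the 56. With only the 8 libraries compared it called 8 at hour 2 against hour 0, all higher, of which 7 were also called by DESeq2 on 12 libraries. DESeq2 called 72 at hour 2 against hour 0 and 163 at hour 12 against hour 2, and 2 and 54 for the interactions with treatment at hours 2 and 12. With sex taken from expression, chosen after seeing the data, edgeR called 0 and DESeq2 called 26 at hour 2 against hour 0, 2 at hour 12 against hour 0 and 39 at hour 12 against hour 2.

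Leaving out 1 library at a time gave 0 to 16 edgeR calls for hour 2 against hour 0, 0 to 0 for hour 12 against hour 0, 0 to 12 for hour 12 against hour 2, and 0 to 0 and 0 to 1 for the interactions at hours 2 and 12. The 16 and the 12 came without Sample_120, and none of those genes has a symbol. Of the 16, 6 were higher at hour 2, and of the 12, 10 were higher at hour 12. DESeq2 on 12 libraries called 6 of the 16 and 1 of the 12. Without Sample_69 and Sample_72, also chosen after seeing the data, edgeR called 0 for both interactions. No paired analysis was possible because each hour is a different set of chicks.

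KPTN passed the threshold without the filter (2.2 on the log2 scale at hour 12 against hour 2). Of the genes named, some with differences near 0 changed sign when 1 library was left out. For hour 2 against hour 0 the log2 fold change ran from -0.165 to 0.434 for ND6, from -0.0252 to 0.252 for ND4 and from -0.317 to 0.0696 for CAPRIN2. At hour 12 against hour 0 it ran from -0.323 to 0.244 for VIPR1, from -0.0831 to 0.154 for ATP6V1C1, from -0.155 to 0.021 for ATP6V1G1 and from -0.00808 to 0.278 for ATP6V1H. Between hours 12 and 2 it ran from -0.119 to 0.208 for CYTB and from -0.0387 to 0.0804 for ATP6V1D. ND6 was also below 0 without Sample_72 (-0.0443), as was ATP6V1D (-0.0262), and ATP6V1D was -0.0132 with DESeq2, -0.0186 with its size factors, -0.0235 with the filter within 12 libraries and -0.00386 with DESeq2 and sex from expression. Depth limits genes with few reads, most at hour 2.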
